A study of Drosophila melanogaster with 54 samples.

Results

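The genes described here are 165 autosomal genes of Drosophila melanogaster whose RNA was lower in gastrulating embryos of both sexes after maternal RNA interference (RNAi) against mof. They were chosen from the counts of gastrulae at stage 7 (St7). A gene entered if it lies on chromosome 2, 3 or 4, averaged at least 5 counts per 1e6 counted (CPM) in control males and in control females, and had a log2 ratio of mof RNAi to control of -1 or less in each sex. The ratio was taken of group means with 0.5 CPM added to each. Of 17558 genes in the table, 5507 autosomal genes reached the control level, and 165 of these, 3.00%, met the ratio in both sexes. The St7 values below chose the genes, so they are given as a description without a test. Independent measurements of the same genes came from blastoderm embryos (St5), from late embryos (St15) and from S2 cells, an established embryonic cell line of male character.

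MOF is the histone acetyltransferase that acetylates a lysine in the tail of histone H4. As part of the male-specific lethal (MSL) complex it acts on the single X of males, and as part of the non-specific lethal (NSL) complex it works at promoters on all chromosomes in both sexes. The early embryo runs on mRNA and protein stored by the mother, and its own genome takes over during the stages sampled here, so depletion in the mother reaches sons and daughters alike.

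Embryos were progeny of mothers carrying the maternal driver mat-a-tub-Gal4 and an RNAi hairpin, either against mof or a control, mated to their siblings and kept at 25 °C. St7 embryos were 6 mof males, 7 control males, 4 mof females and 6 control females. St5 embryos were 4 mof males, 4 control males, 2 mof females and 2 control females. Each St5 or St7 library was 1 embryo whose sex the submitters called from its reads. Each St15 library was a pool of 25 embryos aged 14 to 16 h and sorted by Sxl-GFP, which marks females, with 3 mof male, 3 control male, 4 mof female and 3 control female libraries. S2 cells took up double-stranded RNA (dsRNA) against mof or against GFP for 3 days, 3 libraries each, and nothing in the labels says that these came from separate cultures, so their p-values measure only the spread between these libraries. All embryo groups carry the driver, and effects of the genetic background of each hairpin stock cannot be told apart from those of lower mof.

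The St7 libraries were the shallowest, with 5.50 to 10.02 M counts (M, 1e6). Those of the other tables held 28.3 to 41.5 M for St5, 19.02 to 38.1 M for St15, and 20.5 to 38.8 M for the cell line. mof RNA stood at 2.39 to 25.1 CPM in St7 mof males and 52.8 to 202 CPM in control males, and at 7.02 to 18.01 CPM in mof females and 27.7 to 48.4 CPM in control females. It fell in St5 and St15 embryos of both sexes, with log2 fold changes of -6.68 and -9.07 in St5 males and females and -3.30 and -1.92 in St15 males and females (largest adjusted p 7.67e-05, edgeR quasi-likelihood test, Benjamini-Hochberg adjusted). In S2 cells mof stood at 50.1 to 72.7 CPM after mof dsRNA and 65.9 to 71.8 CPM after GFP dsRNA, a log2 fold change of -0.17 that did not pass (edgeR adjusted p = 0.491), so the S2 libraries labelled mof dsRNA did not show less mof RNA. The St5 libraries labelled mof males 1 and 2 had 3 and 0 reads counted on Y-linked genes, against 198 to 383 in the other St5 males. Among St5 females, control female 1 and mof female 2 had 40 and 52 such reads, against 6 and 5 in control female 2 and mof female 1. St15 mof female 3 had 40, against at most 4 in the other St15 females and 153 to 250 in St15 males.

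Genes annotated as antisense RNA took 1.07 to 1.24% of counts at St7, against at most 0.0114% at St5, 0.0244% at St15 and 0.119% in S2 cells. A stranded kit was used, and whether counting went by strand is not stated in the labels. At St7, therefore, genes whose exons overlap on opposite strands cannot be told apart, which concerns 71 of the 165 genes. These 71 had median log2 ratios of -1.31 in males and -1.48 in females, and the 94 genes without such an overlap had -1.42 and -1.80.

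The 165 genes made up a small and moderately expressed group. They comprised 157 protein-coding genes, 6 antisense RNA genes and 2 pseudogenes, and 71 of them are known by a CG or CR number alone. Their median log2 ratio was -1.34 in males and -1.66 in females, where all autosomal genes at the control level had medians of -0.10 and -0.12. The ratio was lower in females than in males for 131 genes, and 19 genes were at -2 or below in both sexes. In the opposite direction, only 11 autosomal genes were higher by a log2 ratio of 1 or more in both sexes. A further 19 autosomal genes met the ratio in males only and 154 in females only. By the same limits of level and ratio, 57 of 1099 X-linked genes met the rule but for their chromosome, a share of 5.19%.

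**Figure D1:**
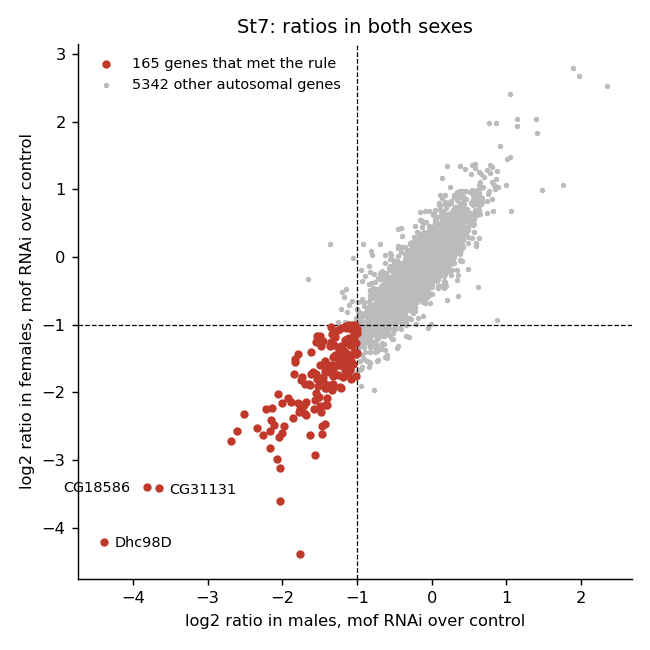
Log2 ratio of mean CPM after mof RNAi to mean CPM in controls at St7, in males (horizontal) and females (vertical), with 1 point per autosomal gene at the control level and dashed lines at -1. The 165 chosen genes (red) fill the lower left corner, and the other 5342 genes (grey) gather near medians of -0.10 in males and -0.12 in females.

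The genes just inside the limit were CG17734, CG1635 and CG1105, and those just outside were CG5290, CG4707 and Samtor. CG17734 averaged 7.63 CPM in mof males and 15.8 CPM in control males, and 5.05 CPM in mof females and 11.6 CPM in control females. CG5290 averaged 25.4 CPM in mof males and 51.3 CPM in control males, and 18.4 CPM in mof females and 44.8 CPM in control females. The genes just under the control level were fat-spondin, CG14346 and Cyp9f2, with 4.98, 4.96 and 4.91 CPM in control females. The border of the group is thus a cut through a continuous range.

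Placed on the chromosomes, the genes were 30 of 1191 genes at the control level on 2L (2.52%), 37 of 1329 on 2R (2.78%), 36 of 1288 on 3L (2.80%), 62 of 1632 on 3R (3.80%) and 0 of 67 on chromosome 4. Their gene structure was close to that of the other autosomal genes at the control level. Median exonic length was 1806 bases, against 2058 bases in the other 5342 genes, and the median number of exons was 4 in both. An exon lay over a gene on the other strand in 43.0% of the chosen genes and 43.3% of the others, and a coding gene started in the opposite direction within 500 bases in 41.8% and 40.5%. Within 2000 bases of another chosen gene lay 28 of them, some as overlapping pairs such as Rpt3R with Alg12, vret with CG6985 and CAH1 with Adat1. The members of such a pair share reads at St7 and are not separate evidence.

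In control embryos the genes were expressed below the level usual for autosomal genes. At St7 their median was 16.0 CPM in control males and 11.9 CPM in control females, against 62.3 and 57.9 CPM for the other genes. In control males at St5 the median was 4.01 CPM, against 32.2 CPM for the others. At St15 it was 14.6 CPM in control males, against 34.5 CPM, and in GFP-treated S2 cells 21.6 CPM, against 42.2 CPM. CPM is not corrected for gene length, and the chosen genes were somewhat shorter than the others. Of the chosen genes, 95.2% were higher in St7 control males than in control females, as were 71.4% of the others. At St5 the order was the other way: 65.0% were higher in control females than in control males, against 48.9% of the others, and 21 genes stood under 1 CPM in both St5 control groups. The St5 control females were only 2 embryos. They also held far more RNA of egg regulators supplied by the mother than the control males, as given below. Sex and stage therefore cannot be told apart in this order.

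The single St7 embryos differed in how low the genes were. The summed level of the 165 genes was 925, 1545, 956, 2198, 1184 and 860 CPM in mof males 1 to 6, against 3104 to 3753 CPM in control males. It was 742, 1041, 683 and 972 CPM in mof females 1 to 4, against 2156 to 3094 CPM in control females. The summed levels did not overlap within a sex, and the highest mof library, mof male 4, lay just above the lowest control female. mof males 4 and 2 also kept the most mof RNA among the mof males, 25.1 and 14.1 CPM against 2.39 to 5.82 CPM in the other 4, and mof female 2, with 18.01 CPM of mof, had the highest sum among mof females. The order was not kept throughout: mof female 3 had the second highest mof level among mof females, 11.3 CPM, and the lowest sum, and mof male 1, with 5.82 CPM of mof, had a lower sum than mof male 5, with 4.59 CPM. mof male 4 was also the shallowest library, with 5.50 M counts, and the part of depth in its values was not tested.

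**Figure D2:**
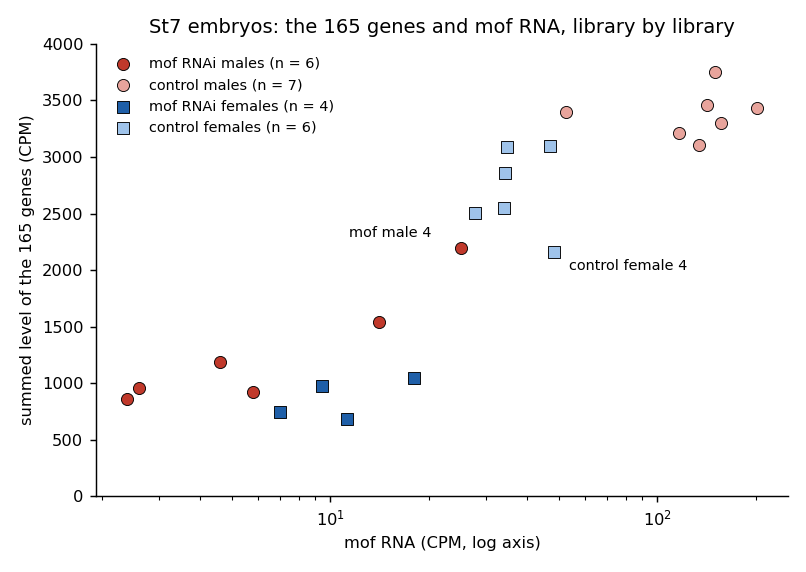
Summed CPM of the 165 genes (vertical) against mof CPM (horizontal, log axis) with 1 point per St7 library, by sex and treatment. The mof libraries lie between 683 and 2198 CPM, with mof male 4 highest, and the control libraries between 2156 and 3753 CPM.

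Gene by gene, every mof male was below every control male for 102 genes, where 6.45% of all genes at the control level were so ordered, and every mof female was below every control female for 147 genes, against 16.7%. Both held for 96 genes, against 4.94% of all genes at the control level, and for 31 genes every mof embryo of either sex was below every control embryo, against 2.14%. The rule used these values, so the counts only describe the group. mof male 4 was the highest mof male for 128 genes, and without it every mof male was below every control male for 141 genes, against 11.8%.

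The deepest differences at St7 were in genes that were nearly silent in mof embryos. CG18586, which has no named function, ranged over 0.1995, 0.475 and 0.711 CPM (lowest, median, highest) in mof males and 8.23, 12.3 and 18.05 CPM in control males. It stood at 0.357, 0.422, 0.463 and 0.571 CPM in mof females, against 5.77, 8.74 and 14.7 CPM (lowest, median, highest) in control females. The groups were far apart in both sexes, with log2 ratios of -3.82 and -3.40, and no mof embryo reached 1 CPM. Sply, the lyase that degrades sphingosine-1-phosphate, showed 0.675, 1.12 and 3.09 CPM in mof males and 5.84, 8.58 and 9.51 CPM in control males. Pask, a protein kinase with a PAS sensor domain, showed 0.355, 0.752 and 1.63 CPM in mof males and 5.12, 8.34 and 10.8 CPM in control males. For both genes the mof and control embryos did not overlap within males, and their log2 ratios were -2.16 and -2.61 in males and -2.57 for each in females.

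Dhc98D and CG31131 stand apart because control embryos disagreed. Dhc98D (chr3R:28486953-28519398 in dm6, plus strand, 47 annotated exons) encodes a heavy chain of axonemal dynein, the motor of cilia and flagella. It was at 0 to 0.237 CPM in mof males, and at 15.9, 22.97, 27.99, 9.36, 0, 0.353 and 5.71 CPM in control males 1 to 7. In females it was at 0.238, 0, 0 and 0 CPM in mof females, against 0.314, 9.98, 9.98, 14.97, 10.9 and 12.9 CPM in control females 1 to 6. CG31131 (chr3R:27961992-27963219, minus strand, 1 exon) was at 0 to 0.0998 CPM in mof males, against 7.45, 10.4, 11.9, 6.58, 0, 0 and 5.71 CPM in control males 1 to 7. Control males 5 and 6 and control female 1 were at or near 0 for both genes, as the mof embryos were, so some controls overlap the mof range. With so few counts in mof embryos their ratios are set largely by the 0.5 CPM added to each mean.

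The mof embryos also differed among themselves for some genes. twy ranged over 0.118, 0.887 and 12.5 CPM in mof males, where 12.5 CPM is mof male 4, and 12.2, 14.03 and 18.4 CPM in control males. It stood at 0.119, 3.94, 0 and 0.714 CPM in mof females, against 6.17, 11.1 and 18.2 CPM in control females. CG13088 (chr2L:8488981-8490546, plus strand) showed 0.970, 3.33 and 13.99 CPM in mof males and 16.8, 24.7 and 29.5 CPM in control males. In both genes mof male 4 came close to the controls while the other mof males stayed lower, and the log2 ratios were -2.16 and -2.14 in males and -2.82 and -2.22 in females.

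**Figure D3:**
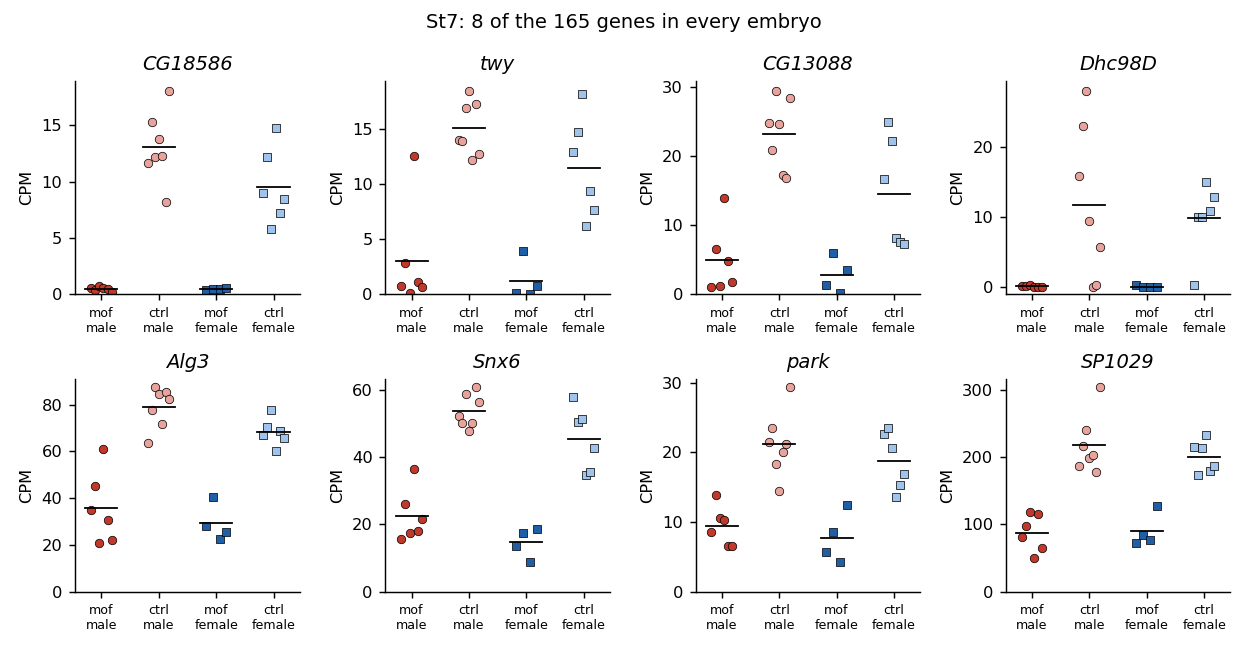
CPM of 8 of the genes in each St7 embryo, by group, with 1 point per embryo and a bar at the group mean. CG18586 stays at or under 0.711 CPM in all mof embryos, Dhc98D is near 0 in mof embryos and in 3 control embryos, and SP1029 keeps at least 49.96 CPM in every mof embryo.

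The most highly expressed genes of the group were reduced rather than lost. SP1029, an aminopeptidase gene (chr3R:29244961-29250451, minus strand), ranged over 49.96, 89.0 and 118 CPM in mof males and 178, 203 and 304 CPM in control males. It stood at 72.8, 84.7, 77.0 and 128 CPM in mof females, against 173, 200 and 233 CPM in control females, so mof and control embryos were apart in both sexes. Its log2 ratios were -1.31 in males and -1.14 in females. Snx6, a sorting nexin of the endosome, showed 15.7, 19.9 and 36.5 CPM in mof males and 47.7, 52.0 and 60.6 CPM in control males, and 13.7, 17.3, 8.95 and 18.6 CPM in mof females, against 34.6, 46.5 and 57.7 CPM in control females. Both sexes were again apart, with log2 ratios of -1.23 and -1.60.

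By their known roles, 63 of the genes could be placed in 12 groups, of which the ones with the most to show follow; the groups were formed after the values had been seen and are no test of a theme. No gene of the group belongs to the MSL and NSL genes, the segmentation genes or any other of the marker lists used for this study's stages. At St5, St15 and in S2 cells a gene passed at an adjusted p under 0.05 over all genes tested, and only such genes are called higher or lower by the test. Shares given over all genes tested include X-linked genes, while the chosen genes are autosomal.

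Enzymes that work on tRNA or at the ribosome form a role group of 8 genes, which are MetRS, CysRS, IleRS-m, TrpRS-m, GatB, Adat1, Pus7 and HemK1. The first 4 charge tRNAs with methionine, cysteine, isoleucine and tryptophan, GatB belongs to an amidotransferase that corrects charged tRNAs, Adat1 deaminates a tRNA adenosine, Pus7 makes pseudouridine, and HemK1 methylates release factors. MetRS ranged over 1.66, 4.95 and 19.98 CPM in St7 mof males and 14.5, 23.4 and 27.03 CPM in control males, with overlap between the groups, and stood at 2.97, 4.64, 0.617 and 1.86 CPM in mof females, against 13.5, 15.5 and 22.98 CPM in control females. HemK1 showed 1.297, 3.62 and 12.5 CPM in mof males and 11.9, 15.5 and 22.2 CPM in control males, with a slight overlap again. The group's median log2 ratio was -1.45 in males and -2.12 in females.

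Another role group, of 5 genes, assembles glycans and lipid anchors in the endoplasmic reticulum or clears misfolded proteins from it. Alg3, Alg9 and Alg12 are mannosyltransferases that extend the dolichol-linked sugar used for N-glycosylation, PGAP2 remodels GPI anchors, and Der-2 is a derlin of ER-associated degradation. Alg3 (chr2R:23705439-23709792, minus strand, 2 exons) ranged over 20.7, 32.7 and 61.2 CPM in St7 mof males and 63.7, 82.6 and 87.7 CPM in control males. It stood at 28.1, 40.4, 22.7 and 25.6 CPM in mof females, against 60.1, 67.8 and 77.8 CPM in control females, with no overlap in either sex and log2 ratios of -1.13 and -1.21. Alg9 showed 6.10, 8.66 and 25.3 CPM in mof males and 32.8, 34.7 and 39.5 CPM in control males. Der-2 showed 2.03, 3.51 and 4.85 CPM in mof males and 5.19, 12.3 and 15.3 CPM in control males, and like Alg9 did not overlap in males.

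Genes of mitochondria and peroxisomes included PolG1, Surf1, park, Mccc1, dare and Acox57D-p. PolG1, the catalytic subunit of the mitochondrial DNA polymerase (chr2L:13823980-13827772, minus strand), showed 6.51, 7.24 and 25.1 CPM in St7 mof males and 20.1, 29.5 and 37.4 CPM in control males. park, the fly Parkin ubiquitin ligase that acts in mitochondrial quality control (chr3L:21194754-21196853, minus strand), showed 6.58, 9.47 and 13.9 CPM in mof males and 14.5, 21.3 and 29.3 CPM in control males. mof male 4 put PolG1 into the control range, while park did not overlap in males. Acox57D-p, an acyl-CoA oxidase of peroxisomal fatty acid breakdown, had log2 ratios of -1.89 in males and -2.15 in females.

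Smaller role groups covered protein turnover, DNA repair, the piRNA pathway, cilia and excitable membranes. Ube4A, a ubiquitin chain elongation factor, ranged over 1.11, 2.89 and 25.1 CPM in St7 mof males and 16.6, 29.2 and 36.6 CPM in control males, and had log2 ratios of -2.04 and -3.12. Rpt3R (chr3R:9754735-9756510, minus strand), a testis paralog of the proteasome ATPase Rpt3, showed 1.796, 4.04 and 10.2 CPM in mof males and 17.8, 21.2 and 33.8 CPM in control males. vret, a Tudor protein of piRNA production, had log2 ratios of -1.55 and -2.02, and Rsph3, a radial spoke protein of motile cilia, -2.34 and -2.52. The neuropeptide gene Orcokinin, the histamine-gated chloride channel HisCl1, the potassium channel Shal and the cation channel pyx stood at 9.81 to 11.6 CPM in control males, with log2 ratios between -1.45 and -1.79 in males.

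In St5 males, where maternal mof RNA was already depleted, part of the genes were lower. Of 149 genes tested, 29 fell and 8 rose, where 7.33% of all 9103 genes tested fell and 6.51% rose (edgeR's quasi-likelihood test, adjusted p under 0.05), so 19.5% of the chosen genes fell. Their median log2 fold change was -0.51, against -0.01 for all genes tested. Without mof males 1 and 2, whose Y counts go against their label, 15 fell and 3 rose, 11 of the 15 being among the 29. Of the 29 falls, 9 held when any 1 library was left out. The count of falls was 12, 11 and 46 without control male 1, 2 or 3 and 19, 18 and 18 without mof male 1, 3 or 4. The count of rises was 3 without control male 1, 2 or 4 or mof male 2 or 3, and 4 without mof male 1.

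CG31915 fell clearly in St5 males, with 4.87, 2.88, 3.44 and 2.36 CPM in mof males, against 26.3, 22.3, 21.2 and 24.5 CPM in control males. CG18586 stood at 2.35, 1.76, 1.04 and 1.52 CPM in mof males, against 16.0, 12.5, 13.5 and 13.2 CPM in control males. In both genes all mof males lay far below all control males, with log2 fold changes of -2.56 ± 0.26 and -2.83 ± 0.41 (standard error; edgeR adjusted p = 0.000354 and 0.00247). Rpt3R stood at 0.631, 0.752, 0.784 and 0.927 CPM in mof males, against 5.27, 5.198, 2.37 and 4.65 CPM in control males, a log2 fold change of -2.24 ± 0.35 (edgeR adjusted p = 0.00317). CG10013 stood at 0, 0, 0.168 and 0.0562 CPM in mof males, against 5.15, 5.55, 3.23 and 3.62 CPM in control males. All 4 mof males were again below all control males. The falls of these genes held on leaving out any 1 library, as did that of CG42495. Top3alpha, a DNA topoisomerase, fell as well (-1.38 ± 0.30, edgeR adjusted p = 0.0138), but not when mof males 1 and 2 were both left out.

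Control male 3 was itself low for several of the genes that fell at St5. TrpRS-m stood at 1.44, 0.627, 0.952 and 1.10 CPM in mof males, against 8.44, 7.14, 0.629 and 7.53 CPM in control males, so that control male 3 lies among the mof males. Tbca, a tubulin folding cofactor, showed the same order, with 0.251 to 0.541 CPM in mof males and 5.59, 3.64, 0.429 and 4.31 CPM in control males. Both passed (edgeR adjusted p = 0.0321 and 0.0172). The call of TrpRS-m was lost without control male 1, 2 or 4 or mof male 2, 3 or 4 (adjusted p up to 0.087), and that of Tbca without control male 1 (0.0543). CG32318 was at 0 in all 4 mof males and at 0.703, 0.424, 5.66 and 4.02 CPM in control males, which makes it at least 123-fold lower by a floor of 3 counts over the mof group. Its call was lost without control male 4 or any 1 of the mof males (adjusted p up to 0.0577).

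The genes that rose in St5 males were Der-2, CG2921, BicD, Gs1l, Snx6, TORIP, CG32473 and CG11807. CG32473 stood at 138, 245, 127 and 167 CPM in mof males, against 56.3, 72.0, 74.1 and 95.2 CPM in control males (1.42 ± 0.20, edgeR adjusted p = 0.00214). Der-2 stood at 37.4, 49.2, 32.1 and 27.3 CPM in mof males, against 13.2, 17.2, 21.2 and 19.1 CPM in control males (1.26 ± 0.22, edgeR adjusted p = 0.00554). The groups did not overlap in either gene, and both calls, like that of CG11807, held on leaving out any 1 library. The rises of Snx6 and BicD, a dynein adaptor, were each lost without control male 1, 2 or 4 or mof male 2 or 3 (adjusted p up to 0.115 and 0.122), and that of Snx6 also without mof male 1. Der-2 was thus higher in mof males at St5, and lower at St7.

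In St5 females the genes hardly passed the test. Of 149 genes tested, 1 fell and 0 rose by edgeR, where 1.80% of all genes fell and 2.24% rose; at an unadjusted p under 0.05, 12 were lower and 5 higher, and DESeq2 called 5 lower and none higher. A fit of only the 4 female libraries called 19 lower and 6 higher, so the count in females depends on which groups share the estimate of spread. The 1 call was CG10013, at 0.0507 and 0.145 CPM in mof females, against 3.76 and 3.21 CPM in control females, and it was lost when any 1 library was left out, which leaves a group of 1 embryo assumed to vary like the other groups. The summed level of the genes was 4624 and 5019 CPM in mof females, against 5479 and 5929 CPM in control females, and 1437 to 2368 CPM in mof males, against 2073 to 2365 CPM in control males. The difference of the mof effect between St5 males and females passed for 0 of 149 genes in edgeR (0.0659% of all genes passed as lower and 0.0549% as higher), with 18 lower and 7 higher at an unadjusted p under 0.05 and 9 lower and 1 higher in DESeq2, so the sexes were not shown to differ at St5. Stage markers moved in St5 females: of 16 early zygotic genes tested 8 were higher, with a median log2 fold change of 1.58, and their sum was 2965 to 4649 CPM in mof females, against 1882 to 1895 CPM in control females. In St5 males 0 of these 16 genes passed, but other stage markers moved there. Of 23 egg regulators supplied by the mother, 5 were higher and 1 lower in St5 males. Of 14 pole cell and germline genes, 5 were higher and 0 lower, where 6.51% of all genes rose in St5 males. Egg regulators supplied by the mother summed to 7468 to 9415 CPM in mof females, against 11333 to 11375 CPM in control females, and to 1753 to 2305 CPM in mof males, against 1465 to 2085 CPM in control males. The part of stage in the St5 values was not tested.

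In late embryos many of the genes were lower. In St15 males 48 of 148 genes tested fell and 15 rose, where 18.2% of all 10684 genes tested fell and 16.0% rose, so 32.4% of the chosen genes fell. Without control male 4 the rises were 9. In St15 females 62 of 148 fell and 4 rose, or 41.9% that fell, where 13.3% of all genes fell and 12.7% rose. Without control female 2 there were 0 rises, and 2 without control female 3 or mof female 1 or 2. The median log2 fold change was -0.13 in males and -0.20 in females, against 0.02 for all genes in each sex. For the other autosomal genes it was 0.08 in males and 0.03 in females. The lists of falls in males and females shared 40 genes, 83.3% of the male list and 64.5% of the female list, where the lists over all genes shared 37.5% and 51.3%. Of the falls, 35 of 48 in males and 50 of 62 in females held when any 1 library was left out. Marker lists moved in the same libraries. In St15 females 5 of 14 heat shock genes, 8 of 17 muscle genes, 9 of 24 oxidative stress genes and 5 of 14 hemocyte genes were higher and none lower, with median log2 fold changes of 1.37, 0.26, 0.26 and 0.14. In St15 males 5 of 18 neuronal genes were lower and none higher, and of 24 oxidative stress genes 2 were lower and 5 higher. Of 25 cuticle protein genes, 6 were higher and 1 lower in St15 females, with a median log2 fold change of 0.93. In St15 males 4 of the 25 were higher and 0 lower, with a median of 0.52. Of 7 genes listed as strain markers, 4 were higher and 0 lower in St15 females, and 0 passed in St15 males. The part of these in the values of the 165 genes was not tested.

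**Figure D4:**
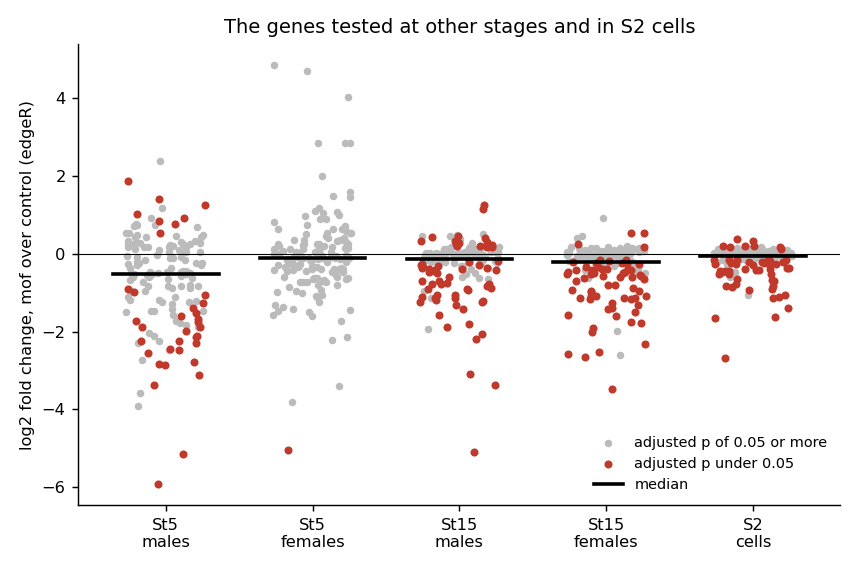
Log2 fold change of each chosen gene in the 5 comparisons outside St7, with 1 point per gene tested, red where the adjusted p was under 0.05, and a bar at the median. CG32318 in St5 males and asRNA:CR46107 in St15 females, at 0 in all mof libraries, are left out. The medians are -0.51 in St5 males, -0.10 in St5 females, -0.13 in St15 males, -0.20 in St15 females and -0.06 in S2 cells.

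PolG1 was among the clearest St15 falls. It stood at 3.29, 3.63 and 2.74 CPM in mof males, against 13.6, 13.3 and 13.6 CPM in control males, and at 1.47, 1.96, 2.13 and 2.03 CPM in mof females, against 12.2, 11.6 and 10.3 CPM in control females. Mof and control libraries were far apart in both sexes, with log2 fold changes of -2.06 ± 0.15 and -2.53 ± 0.14 (edgeR adjusted p = 4.74e-07 and 1.18e-07). Der-2 stood at 14.4, 14.99 and 14.9 CPM in mof males, against 34.9, 35.5 and 33.6 CPM in control males, and at 10.2, 10.2, 12 and 10.03 CPM in mof females, against 29.9, 32.3 and 31.8 CPM in control females. Its log2 fold changes were -1.23 and -1.5003 (edgeR adjusted p = 2.68e-07 and 3.97e-08), the opposite of its rise at St5.

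JMJD5, a JmjC-domain protein, also fell in both St15 sexes. It stood at 1.59, 1.24 and 0.661 CPM in mof males, against 4.36, 6.44 and 5.31 CPM in control males, and at 1.05, 1.31, 0.949 and 1.18 CPM in mof females, against 4.67, 4.42 and 4.19 CPM in control females. The log2 fold changes were -2.19 ± 0.26 and -1.92 ± 0.23 (edgeR adjusted p = 2.12e-05 and 7.75e-05). Snx6 passed in both sexes with changes of -0.18 and -0.24, but its male call was lost without any 1 of the 6 libraries (adjusted p up to 0.165) and with the replicate block (0.0926), and its female call without control female 2 (0.0515).

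Several role groups held genes that fell at St15. Of the 5 glycan and ER genes, Alg3, Alg9, PGAP2 and Der-2 fell in both sexes, while Alg12 rose in males. The male fall of PGAP2 was lost without control male 2 (adjusted p = 0.0517), and the other falls held on leaving out any 1 library. A separate list of 27 secretory pathway components had 6 lower and 13 higher in St15 males and 0 of either in St15 females by the test. Alg9 stood at 16.3, 18.2 and 17.4 CPM in mof males, against 22.4, 21.4 and 23.3 CPM in control males, and at 14.4, 12.1, 13.2 and 11.3 CPM in mof females, against 22.9, 22.2 and 25.2 CPM in control females. Of the 8 tRNA and translation genes, GatB, the subunit of a tRNA amidotransferase, fell in both sexes, by 1.58 in males and 1.08 in females. CysRS, IleRS-m, TrpRS-m and Adat1 passed in females and not in males, with female log2 fold changes of -0.16, -0.25, -0.23 and -0.58. Each of these 4 calls was lost on leaving out some single libraries, mof female 4 for every one of them, with adjusted p up to 0.0898, 0.122, 0.0609 and 0.143. MetRS rose in males by 0.40 ± 0.06 (edgeR adjusted p = 0.000179), at 112, 120 and 117 CPM in mof males, against 89.4, 89.8 and 86.2 CPM in control males. The 3 axoneme and cilium genes passed in neither sex at St15; Dhc98D, deepest at St7, stood at 4.35, 5.70 and 5.24 CPM in St15 mof males and 5.22, 5.68 and 4.76 CPM in control males.

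The mof effect at St15 differed between the sexes for 17 of the genes. The difference, male effect minus female effect, was negative for 3 and positive for 14 of 148 genes, where 10.2% of all genes were negative and 6.56% positive (edgeR, adjusted p under 0.05). All genes here include X-linked genes. The median difference was 0.07 for the chosen genes, 0.05 for the other autosomal genes and -0.01 for all genes. The negative count was 1 without control male 4, mof female 1 or mof male 1 or 2, and 6 without mof male 4. The positive count was 9 without control female 2 or mof female 2, 6 without control male 4, 8 without mof male 2 and 24 without mof male 4. With the replicate number as a block it was 6. A positive difference means that the mof effect was lower in females than in males. Ice2 stood at 16.2, 14.9 and 12.6 CPM in mof males, against 9.74, 11.1 and 10.8 CPM in control males, and at 6.41, 6.49, 7.78 and 6.25 CPM in mof females, against 9.83, 9.83 and 10.1 CPM in control females. It rose in males and fell in females, a difference of 0.97 ± 0.15 (edgeR adjusted p = 0.000772). MetRS differed by 0.44 ± 0.08 (edgeR adjusted p = 0.00258). CAH1, a carbonic anhydrase, went the other way, with a difference of -0.66 ± 0.19 (edgeR adjusted p = 0.0295) that was lost on leaving out any of 8 libraries. It stood at 50.2, 44.2, 51.6 and 42.1 CPM in mof females, against 32.1, 33.3 and 35.3 CPM in control females. Of these 17 calls, 6 held on leaving out any 1 library, Ice2 and MetRS among them.

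In S2 cells 45 of 146 genes tested fell and 8 rose, or 30.8% that fell, where 13.2% of all 9676 genes tested fell and 10.2% rose. Changes were small, with a median log2 fold change of -0.06, against -0.01 for all genes and 0.02 for the other autosomal genes. In these libraries mof RNA itself did not pass. Of the 45 falls, 27 held on leaving out any 1 library. The count of rises was 5 without GFP library 1, 4 without mof library 1 or 3, and 3 without GFP library 3 or mof library 2. Rpt3R stood at 2.06, 1.96 and 2.02 CPM after mof dsRNA, against 6.49, 5.71 and 6.70 CPM after GFP dsRNA, a log2 fold change of -1.64 ± 0.12 (edgeR adjusted p = 1.38e-05). Kpc1, a ubiquitin ligase subunit, stood at 13.5, 10.9 and 11.4 CPM after mof dsRNA, against 25.8, 23.9 and 25.1 CPM after GFP dsRNA (-1.05 ± 0.09, edgeR adjusted p = 3.19e-05). Treated and control libraries did not overlap for either gene.

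Other roles were represented in S2 cells as well. BoYb, a Tudor-domain protein of the piRNA pathway in the germline and a paralog of Yb, stood at 48.2, 49.6 and 50.1 CPM after mof dsRNA, against 67.7, 66.3 and 66.8 CPM after GFP dsRNA (-0.44 ± 0.04, edgeR adjusted p = 7.61e-05). HisCl1 stood at 0.593, 0.420 and 0.577 CPM after mof dsRNA, against 1.58, 1.07 and 1.55 CPM after GFP dsRNA, a fall of 1.39 on the log2 scale. PolG1 stood at 57.5, 56.7 and 60.3 CPM after mof dsRNA and 59.4, 49.9 and 57.7 CPM after GFP dsRNA and did not pass. SP1029 rose, with 194, 193 and 202 CPM after mof dsRNA, against 157, 147 and 153 CPM after GFP dsRNA (0.37 ± 0.04, edgeR adjusted p = 0.000242). By the test it was higher in St15 males as well, and did not pass in St15 females. SP1029 fell in St5 males (-1.88 ± 0.47, edgeR adjusted p = 0.0235), at 16.2, 54.1, 75.5 and 102 CPM in mof males, against 266, 273, 279 and 245 CPM in control males. That St5 call was lost without control male 1 or 2 or mof male 2 (adjusted p up to 0.0589).

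Across the 5 comparisons outside St7, 65 of the 165 genes fell in none, 40 in 1, 39 in 2, 17 in 3 and 4 in 4. These comparisons are independent of the St7 values but not all of one another. Males and females of a stage share a fit and its estimate of spread. No gene of the 165 could fall in all 5, because CG10013, the only fall in St5 females, was not tested at St15 or in S2 cells. Of the 165 genes, 132 were tested in all 5 comparisons and 4 in none. Of these 132, 67.4% fell in at least 1 comparison, where 40.8% of all 7166 genes so tested did. At least 2 falls were seen for 43.2% of the 132 genes, against 17.5% of all genes. At least 3 were seen for 15.2%, against 4.66%, and at least 4 for 3.03%, against 0.670%. At least 1 rise was seen for 30 genes, and 17 genes fell in one comparison and rose in another. How many of all genes did so was not counted, so these numbers only describe the group. The falls of St15 males and of S2 cells shared 21 genes (43.8% of the St15 male list and 46.7% of the S2 list), where the falls over all genes shared 32.7% and 49.96% of these lists. Those of St15 females and S2 cells shared 20 (32.3% of the St15 female list and 44.4% of the S2 list), against 21.1% and 23.6% over all genes. Both St15 sexes and S2 cells shared 17 genes, against 244 of all genes. Among genes tested in all 5 comparisons, such shared falls were seen for 12.1% of the chosen genes and 3.22% of all genes. The lists over all genes include X-linked genes, and the shares were not tested against each other.

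The 4 genes that fell in 4 comparisons were Alg3, CG13088, CG42495 and CG8526. Alg3 fell in St5 males, with 4.81, 3.82, 5.09 and 4.38 CPM in mof males, against 13.1, 15.2, 5.94 and 11.2 CPM in control males. At St15 it stood at 20.4, 18.7 and 20.3 CPM in mof males, against 30.2, 26.1 and 27.6 CPM in control males, and at 21.3, 18.7, 20.8 and 19.1 CPM in mof females, against 31.6, 31.0 and 30.2 CPM in control females. In S2 cells it stood at 28.8, 27.98 and 26.8 CPM after mof dsRNA, against 41.1, 32.9 and 37.2 CPM after GFP dsRNA. No mof library overlapped a control library in any of the 4 comparisons, and the log2 fold changes were -1.07, -0.50, -0.57 and -0.41. The St15 and S2 calls of Alg3 held on leaving out any 1 library, while the St5 call was lost without control male 1 or 2 or mof male 2 or 4 (adjusted p up to 0.0888).

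CG13088 fell in St5 males, in both St15 sexes and in S2 cells. It stood at 1.35, 1.79 and 1.27 CPM in St15 mof males, against 5.13, 5.78 and 5.35 CPM in control males, and at 0.709, 0.576, 0.806 and 1.09 CPM in St15 mof females, against 5.06, 3.84 and 3.46 CPM in control females. The groups were well apart, with log2 fold changes of -1.87 ± 0.23 and -2.33 ± 0.22 (edgeR adjusted p = 2.81e-05 and 9.30e-06). Its S2 fall was smaller, 0.47 on the log2 scale, and was lost without GFP library 3 or mof library 1 or 3 (adjusted p up to 0.089), and its St5 call without control male 2 (0.0501). CG42495, of no named function, fell by 2.45 in St5 males, by 1.31 and 1.14 in St15 males and females and by 0.94 in S2 cells on the log2 scale, and only the S2 call was lost, without mof library 1 (adjusted p = 0.065). CG8526 stood at 0.472 to 0.580 CPM in St15 mof males and 0.807 to 1.14 CPM in control males, and its male St15 call was lost without any 1 of the 6 libraries (adjusted p up to 0.145), its female call without any 1 of 6 of the 7.

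**Figure D5:**
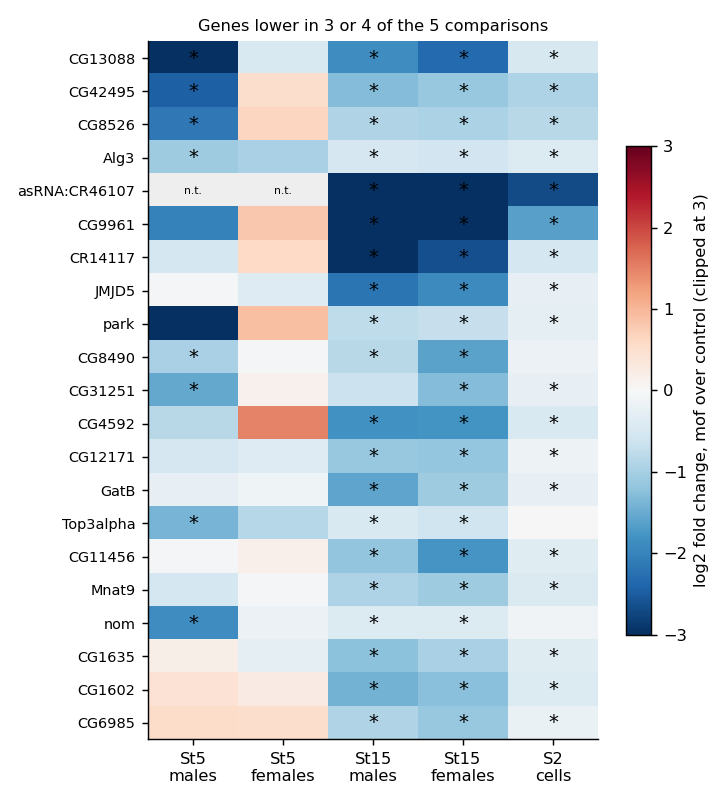
Log2 fold change of the 21 genes that fell in 3 or 4 of the 5 comparisons outside St7, with genes in rows and comparisons in columns, colours clipped at 3, a star where the adjusted p was under 0.05 and n.t. where the gene was not tested. Alg3, CG13088, CG42495 and CG8526 carry 4 stars. No gene could carry 5, because the only gene that fell in St5 females was not tested at St15 or in S2 cells.

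The 17 genes that fell in 3 comparisons included park, GatB, JMJD5 and Top3alpha, named above. park stood at 2.13, 1.75 and 3.12 CPM in St15 mof males, against 3.99, 4.12 and 3.87 CPM in control males, at 2.52, 3.03, 2.70 and 2.18 CPM in St15 mof females, against 5.25, 4.42 and 3.62 CPM in control females, and at 14.3, 13.9 and 14.4 CPM after mof dsRNA in S2 cells, against 18.04, 16.3 and 16.8 CPM after GFP dsRNA. The groups did not overlap in any of these. The calls of park were lost in St15 males without mof male 2 (adjusted p = 0.055), in St15 females without control female 2 or mof female 4 (up to 0.0942), and in S2 cells without GFP library 1 or mof library 2 or 3 (up to 0.0704). GatB fell by 0.25 on the log2 scale in S2 cells (edgeR adjusted p = 0.00263), beside its St15 falls. The St15 male call of Top3alpha was lost with the replicate block (adjusted p = 0.0701).

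Genes with and without an exon over another gene's exons on the other strand both fell in comparisons outside St7. Of genes without such an overlap, 17 of 89 tested fell in St5 males, 24 of 82 in St15 males, 30 of 82 in St15 females and 19 of 81 in S2 cells. Of genes with an overlap, 12 of 60 fell in St5 males, 24 of 66 in St15 males, 32 of 66 in St15 females and 26 of 65 in S2 cells. Over all genes tested, 7.33% fell in St5 males, 18.2% in St15 males, 13.3% in St15 females and 13.2% in S2 cells. The difference between these kinds of gene was not tested. Of the 15 MSL and NSL complex genes, none of them among the 165, 4 fell and 9 rose in St15 males, 1 fell and 2 rose in St15 females, 1 fell and 1 rose in St5 males, 2 fell and 0 rose in St5 females, and 1 fell and 2 rose in S2 cells.

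Markers of other cell types and stress genes moved with treatment at St7 in part. Summed heat shock genes stood at 805 to 914 CPM in mof females, against 618 to 723 CPM in control females. Summed glial genes stood at 495 to 692 CPM in mof males and 411 to 542 CPM in control males, and at 542 to 669 CPM in mof females and 394 to 551 CPM in control females. The 17 testis genes of the list summed to 17.4 to 60.3 CPM in mof males and 50.3 to 74.97 CPM in control males, and to 11.4 to 25.3 CPM in mof females and 28.9 to 53.7 CPM in control females. Of these 17 genes, 8 were at 0 in all mof males and 10 in all control males, and 12 in all mof females and 9 in all control females. Their part in the St7 values was not tested, and in whole embryos fewer cells of a type and less RNA per cell cannot be told apart.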

How the data were processed

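PolyA RNA was measured in 54 libraries of 14 groups. The authors deposited 4 tables of read counts per gene, 1 per embryo stage and 1 for S2 cells, whose columns are libraries. Per the submitters' processing notes the genome build is dm6, while aligner, counter and annotation are not stated there. Of the 17558 genes of each table, 17252 matched Ensembl release 115 by gene ID (17330 at St5, by name), and 163 of the 165 genes were found at St5. Titles set the groups. The genotype text of St15 mof libraries and of St5 control females conflicts with them, and mof counts went with the titles.

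CPM is count over column total. Each table was fitted alone in edgeR 4.0.16 (R 4.3.3) with all its groups, TMM scaling, filterByExpr, robust quasi-likelihood and no replicate block, with Benjamini-Hochberg adjustment over all genes tested. The script was tested on simulated data. Standard errors were derived from the log2 fold change and its F statistic. The 165 genes, gene lists and role groups were chosen with earlier results of these data known. Named genes are the 15 deepest at St7, up to 10 per direction and comparison, those that fell repeatedly, those at the limit and the highest expressed, and others named for their role were chosen after their values were seen. No pair of replicates agreed within sampling noise. Deviations of same-numbered St15 mof and control males had correlations of 0.107 to 0.221. Those of St15 control females and mof males had 0.324 and 0.275, and those of control females and control males -0.56 and -0.53. For St15 mof and control females they ran from -0.196 to 0.180. Over all tables same-numbered libraries had correlations of either sign, from -0.573 to 0.547. The labels do not say that a number marks a shared batch. The main fits therefore ignore any pairing, and the replicate block is given as an alternative. Alternatives were DESeq2 1.42.0, other scalings and filters, the replicate block, only the groups compared and leaving out libraries.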

Additional observations from a re-analysis of the deposited data

Results flagged for a closer look

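Of 144 checks, each of 1 gene or 1 library measure in 1 group, 13 flagged 1 library as standing apart from the others of its group. A few reads beside values of 0 are enough for a flag, so this number cannot be set against chance. The flags of Dhc98D in mof female 1 and of CG31131 in mof male 6 rest on such low values. At St7, CG31131 stood at 0.0998 CPM in mof male 6, 0.154 CPM in mof female 3 and 0 CPM in control female 1, Dhc98D at 0.238 CPM in mof female 1 and 0.314 CPM in control female 1, twy at 12.5 CPM in mof male 4, and Rpt3R at 33.8 CPM in control male 6. At St5, CG7755 stood at 0.0313 CPM, BicD at 72.8 CPM and CG2921 at 30.9 CPM in mof male 2, while Patsas stood at 0.257 CPM in control male 3 and Fa2h at 2.79 CPM in control male 2. At St15, Kyat stood at 54.2 CPM in mof female 2.

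The mof effect at St15, as log2 fold change in males minus that in females, differed from 0 in edgeR for 17 genes. It was 0.57 for adp, 0.27 for CG6923, 0.78 for CG8490, 0.44 for MetRS, 0.45 for Alg9, 0.38 for CG10254, 0.42 for TORIP, 0.96 for Adat1, 1.64 for CG30383, 2.09 for CG10445, 0.40 for CG18476, 0.97 for Ice2, 0.51 for CG14721 and 0.295 for Mccc1. It was -0.66 for CAH1, -0.49 for CG7920 and -0.31 for Agpat4.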

How the results depend on the processing

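The number of genes meeting the St7 rule, 165, became 316 at a control level of 1 CPM, 100 at 10 CPM, 52 at a ratio of -1.5 and 255 without mof males 2 and 4, which was tried after seeing the data, and lay between 150 and 219 on leaving out single embryos (219 without mof male 4). In St5 males 29 falls and 8 rises became 45 falls in DESeq2, 17 falls and 4 rises with the replicate block, 3 rises in a fit of only the groups compared, and 15 falls and 3 rises without mof males 1 and 2. In St5 females 1 fall and 0 rises became 5 falls in DESeq2, 19 falls and 6 rises in a fit of only the groups compared, and 0 falls with the replicate block, also with the numbers crossed in mof females, which was added after seeing the data. In St15 males 15 rises became 8 with scaling on autosomal genes, with no filter on low counts and with only the groups compared. In St15 females 4 rises became 2 with no filter. In S2 cells 8 rises became 4 with scaling on autosomal genes and 5 in DESeq2 and with the replicate block. The St5 sex difference, at 0 and 0, had 9 lower and 1 higher in DESeq2, and the 14 higher of the St15 sex difference became 6 with the replicate block. The block changed no other count by more than 1.5 times.

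Leaving out single libraries gave 11 to 46 falls and 3 to 10 rises in St5 males, 0 and 0 in St5 females, 40 to 47 falls and 9 to 14 rises in St15 males, 51 to 62 and 0 to 4 in St15 females, 32 to 44 and 3 to 6 in S2 cells, 0 to 1 lower and 0 to 1 higher for the St5 sex difference, and 1 to 6 lower and 6 to 24 higher for the St15 one. With only the genes free of an overlap on the other strand, chosen after seeing the data, falls were 17, 24, 30 and 19 in St5 males, St15 males, St15 females and S2 cells, rises in St15 females 2, and the higher of the St15 difference 9. Of the values of single named genes under all alternatives, 1848 kept their call, 409 fell short of it and none reversed. Groups of 2 embryos limit St5 females, and depths of 5.50 to 10.02 M counts limit low genes at St7.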
